A study of Mus musculus with 2 samples.

Results

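Potassium channel genes were described in the urinary bladder of newborn mice. The genes were taken as all protein-coding genes of the mouse GENCODE M21 annotation whose symbol starts with Kcn, which gave 94 of the 21474 protein-coding genes with values. Of these, 77 encode pore-forming subunits and 17 encode accessory subunits. The rule itself uses no measured value. The samples were whole bladders of 2 littermate pups of strain B6NCrl, taken at postnatal day 0. Each pup gave 1 total RNA library, and 10 ng of RNA longer than 200 nt went into it. Both pups are untreated and carry no named allele, their sex was not recorded, and they form 1 group (n = 2 biological replicates). The design therefore holds no contrast between conditions, and the question the values answer is which of these genes the newborn bladder transcribed, at what level, and how closely littermates matched.

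Potassium channels let potassium leave the cell down its gradient, which pulls the membrane potential towards negative values and closes voltage-gated calcium channels. In the smooth muscle of the bladder wall they are known as brakes on contraction, and in epithelia they set the driving force for the movement of other ions. Most pores are built from 4 subunits around a shared selectivity filter, whereas tandem-pore channels carry a pair of filters in each subunit and assemble from pairs. Accessory subunits form no pore and change the gating, trafficking or calcium sensitivity of the pore they join.

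The libraries held 43653931 expected counts in pup 1 and 32564563 in pup 2, and expected counts are reads per gene as estimated by the authors' software. Potassium channel genes took 0.0611% of counts in pup 1 and 0.0614% in pup 2. The tissue label was checked against marker genes. All 6 smooth muscle and all 5 urothelial markers were at 222 TPM or more on average, TPM being the transcript level per length, scaled to a fixed total in each library. All 5 pericyte, all 4 endothelial, all 4 fibroblast and both interstitial cell markers also reached 1 TPM in both pups, as did all 4 Schwann and glial markers. Of the 5 skeletal muscle markers, 3 reached 1 TPM in both pups. Acta1 and Ckm were high, whereas Mylpf had 2.42 TPM in pup 1 and 1.64 TPM in pup 2. Myl1 had 2.72 TPM in pup 1 and 0.86 TPM in pup 2, and Myog had 0 counts. Only 2 of 5 neuronal markers reached 1 TPM in both pups, and the 4 kidney markers had 0 counts in both. In such bulk tissue, a small number of cells with much of a transcript and many cells with little of it cannot be told apart.

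The pore subunits share a known sequence of the selectivity filter. Genes were split into pore and accessory by symbol, and symbols follow channel families, so the matches are a description and no independent check. In potassium channels the filter is lined by the signature of threonine or serine, any residue, glycine, tyrosine or phenylalanine, and glycine. This signature was searched in frame on the coding strand of the longest GENCODE M21 coding transcript of each gene. It was present in 77 of 77 pore genes and in 0 of 17 accessory genes, against 2.62% of the 21428 protein-coding genes searched. In 11 of the 14 tandem-pore genes it was found at least 2 times. A match describes the letters and is no measure of channel function. The coding stretches of 8 pore genes with a mean of 5 TPM or more are shown because these are among the bladder's leading pores and show how the filter is spelled. They run 5′ to 3′ along the coding strand, and the capitals mark the glycine, tyrosine or phenylalanine, and glycine codons.
Kcnk1: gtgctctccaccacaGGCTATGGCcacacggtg
Kcnk3, first pore: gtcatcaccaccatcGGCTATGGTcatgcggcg
Kcnk3, second pore: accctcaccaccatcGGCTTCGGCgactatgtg
Kcnf1: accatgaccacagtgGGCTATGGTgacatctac
Kcng1: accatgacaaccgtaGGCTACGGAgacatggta
Kcnma1: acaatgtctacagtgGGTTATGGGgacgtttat
Kcnd3: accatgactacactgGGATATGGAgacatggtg
Kcnh2: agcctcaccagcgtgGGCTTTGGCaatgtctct
Kcnj8: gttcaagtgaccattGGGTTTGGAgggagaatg

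Of the 9 stretches, 6 have a tyrosine codon in the middle of the capitals and 3 a phenylalanine codon, namely Kcnh2, Kcnj8 and the second pore of Kcnk3. Kcnk1 was matched once. All coordinates are on mm10. The Kcnk1 stretch lies on the plus strand at chr8:125995799-126025028 and spans an intron, as do the first pore of Kcnk3 at chr5:30588584-30621907 and Kcnd3 at chr3:105459905-105658626, both also on the plus strand. The second pore of Kcnk3 is at chr5:30622193-30622225, on the plus strand. On the minus strand are Kcnf1 at chr12:17175052-17175084, Kcng1 at chr2:168262632-168262664, Kcnma1 at chr14:23528404-23528436, Kcnh2 at chr5:24325546-24325578 and Kcnj8 at chr6:142566439-142566471. Each of these stretches is coding sequence.

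The newborn bladder transcribed a limited part of the potassium channel repertoire, led by a tandem-pore gene. Of the 94 genes, 31 (33.0%) reached 1 TPM in each pup and are called detected, against 58.5% of all protein-coding genes. Another 3 reached 1 TPM in 1 pup only and 60 were below it in both. The median mean level was 0.260 TPM over the 94 genes and 3.36 TPM over all protein-coding genes, and among detected genes the medians were 4.31 and 14.3 TPM. A mean of 5 TPM or more was reached by 15 of the 94 members, against 45.3% of all protein-coding genes, and 10 TPM or more in both pups by 8. Summed over all members the level was 294 TPM in pup 1 and 277 TPM in pup 2 (mean 285 ± 11.9, SD, n = 2). The 8 highest genes held 65.0% of that sum on average and the 31 detected genes held 95.6%.

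By class, tandem-pore genes held 30.5% of the summed level, silent voltage-gated modifiers 12.9%, other voltage-gated pores 12.5%, calcium- or sodium-activated pores 10.4% and inward rectifiers 8.56%. The accessory subunits together held 25.1% of it, at 26.1% in pup 1 and 24.1% in pup 2, and the Kcne subunits alone held 12.5% in pup 1 and 11.4% in pup 2. Detection differed between classes, at 7 of 30 voltage-gated pores, 2 of 10 silent modifiers, 5 of 8 calcium- or sodium-activated pores, 3 of 15 inward rectifiers and 5 of 14 tandem-pore genes. Of the accessory subunits 9 of 17 were detected, and of the pores 22 of 77.

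**Figure D1:**
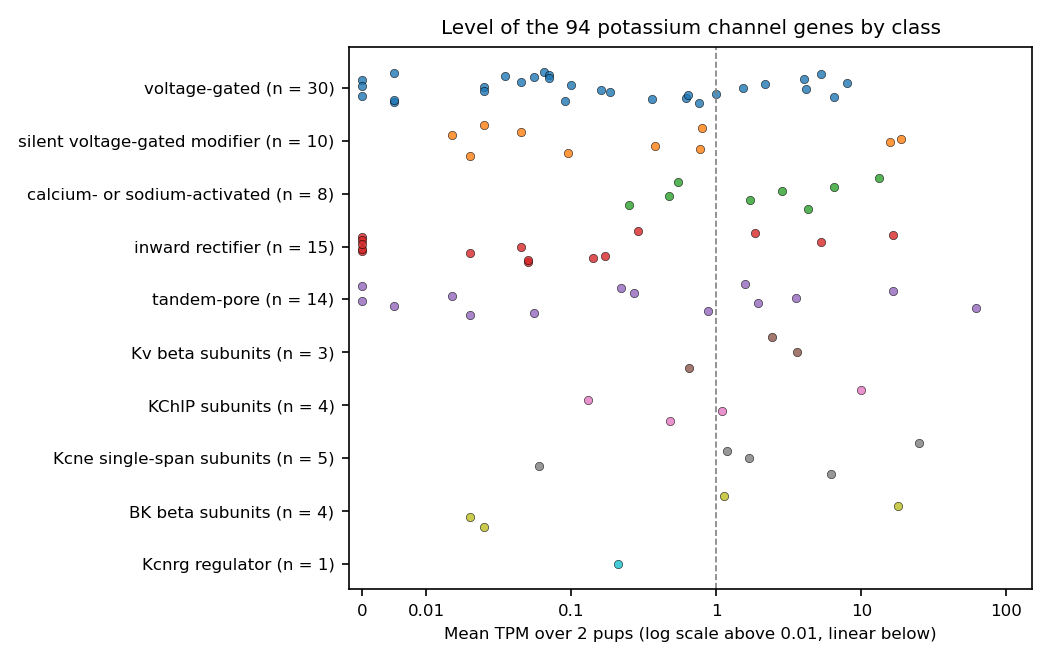
Mean TPM over 2 pups of each of the 94 potassium channel genes, 1 point per gene, by class (rows), on an axis that is logarithmic above 0.01 TPM and linear below. The dashed line is 1 TPM. Kcnk1, at 62.0 TPM, stands to the right of all other genes, and 10 genes sit at 0.

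Tandem-pore channels, which pass the leak current that sets the resting potential, held the single highest gene. Kcnk1, the founding TWIK-type channel with weak conductance (ENSMUSG00000033998, chr8:125995170-126030685), was at 68.8 TPM in pup 1 and 55.1 TPM in pup 2 (mean 62.0 ± 9.69, SD, n = 2). Both pups were above every value of the next gene, Kcne4, and Kcnk1 alone made up 21.7% of the summed potassium channel level. Kcnk3, an acid-sensitive leak channel, was at 14.81 TPM in pup 1 and 18.04 TPM in pup 2. The others detected were far lower. Kcnk5, an alkaline-activated channel known from kidney epithelium, had 3.74 and 3.33 TPM, Kcnk6, a relative of Kcnk1, had 1.96 and 1.90 TPM, and Kcnk2, a stretch-activated channel, had 1.87 and 1.30 TPM in pup 1 and pup 2. With protein-coding transcripts alone Kcnk2 had 1.47 TPM in pup 1 and 0.93 TPM in pup 2, which is below the threshold in pup 2. Kcnk13, a halothane-inhibited channel described in microglia, was above 1 TPM in pup 2 only, with 0.48 TPM in pup 1 and 1.28 TPM in pup 2. The remaining 8 members of the class were at a mean of 0.270 TPM or less, and Kcnk15 and Kcnk18 had 0 counts.

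Silent voltage-gated subunits, which form no working channel alone and alter the Kv2 pores they join, held a pair of the higher genes. Kcnf1 (ENSMUSG00000051726, chr12:17172100-17176888) was at 21.6 TPM in pup 1 and 16.1 TPM in pup 2. Kcng1 (ENSMUSG00000074575, chr2:168260117-168281736) was at 12.6 TPM in pup 1 and 18.9 TPM in pup 2. The pups thus ranked these genes in opposite order. The Kv2 pore Kcnb2, a delayed rectifier, had 1.40 TPM in pup 1 and 1.64 TPM in pup 2, so that each value of Kcnf1 and Kcng1 exceeded each value of Kcnb2. The other 8 silent subunits were below 1 TPM in both pups, with Kcns3 the nearest at 0.99 TPM in pup 1 and 0.60 TPM in pup 2.

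The other voltage-gated pores included detected genes of the Kv7, Kv4 and ether-a-go-go groups. Kcnq5, a low-threshold Kv7 pore, was at 4.53 TPM in pup 1 and 3.82 TPM in pup 2. Kcnd3, which carries transient outward current in the heart, was at 6.23 and 6.65 TPM. Kcnh2, the ERG channel that repolarises cardiac muscle, was at 4.23 TPM in pup 1 and 6.32 TPM in pup 2. The ranges of Kcnd3 and Kcnh2 overlapped, but within each pup Kcnd3 was the higher. Those of Kcnh2 and Kcnq5 also overlapped, and the pups ranked them in opposite order, so this order is not resolved by 2 pups. Kcna5, a delayed rectifier of vessel walls and atrium, was detected at 2.66 and 1.68 TPM and was the one Kv1 pore of 8 to be so. The 22 voltage-gated pores below 1 TPM in both pups included all 4 Kv3 genes, whose fast channels are typical of neurons, each at a mean of 0.1 TPM or less, and Kcna4 and Kcna10 had 0 counts. Kcnd1, at 1.15 TPM in pup 1 and 0.84 TPM in pup 2, crossed the threshold in pup 1 only.

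Calcium-activated pores couple a rise in calcium to repolarisation, and most of the class was detected. Kcnma1, the pore of the large-conductance BK channel (ENSMUSG00000063142, chr14:23289431-24014491), had 13.5 TPM in pup 1 and 12.7 TPM in pup 2. Kcnn4, the intermediate-conductance channel known from red cells, lymphocytes and epithelia, had 4.78 TPM in pup 1 and 8.23 TPM in pup 2. Small-conductance pores were lower, with Kcnn3 at 3.09 and 5.52 TPM, Kcnn2 at 3.30 and 2.37 TPM and Kcnn1 at 0.52 and 0.56 TPM. Of the detected genes of this class Kcnma1 matched most closely between pups, and Kcnn3 and Kcnn4 were both lower in pup 1. The sodium-activated Kcnt1 had 1.41 and 2.02 TPM, but 0.66 and 0.73 TPM when its protein-coding transcripts alone were counted. Kcnu1, a sperm-specific relative of Kcnma1, stayed at 0.25 TPM in both pups.

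Inward rectifiers were represented by few genes. Kcnj8, the pore of the vascular ATP-sensitive channel (ENSMUSG00000030247, chr6:142564837-142571614), was at 17.2 TPM in pup 1 and 15.8 TPM in pup 2. Kcnj15 followed at 5.86 and 4.74 TPM, and Kcnj12, a strong rectifier, at 2.00 and 1.68 TPM. Kcnj8 held 67.6% of the level of its class. The other 12 inward rectifiers were below 1 TPM in both pups, the highest being Kcnj2, a strong rectifier of heart and skeletal muscle, at 0.33 and 0.25 TPM. Kcnj1, Kcnj3, Kcnj6, Kcnj11 and Kcnj16 had 0 counts, among them the renal secretory channel Kcnj1 and Kcnj11, the pore of the ATP-sensitive channel of pancreatic beta cells. Since 3 counts are the limit a count of 0 leaves, Kcnj11 could have been at up to 0.0933 TPM (pup 1) or 0.117 TPM (pup 2), from counting error alone.

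**Figure D2:**
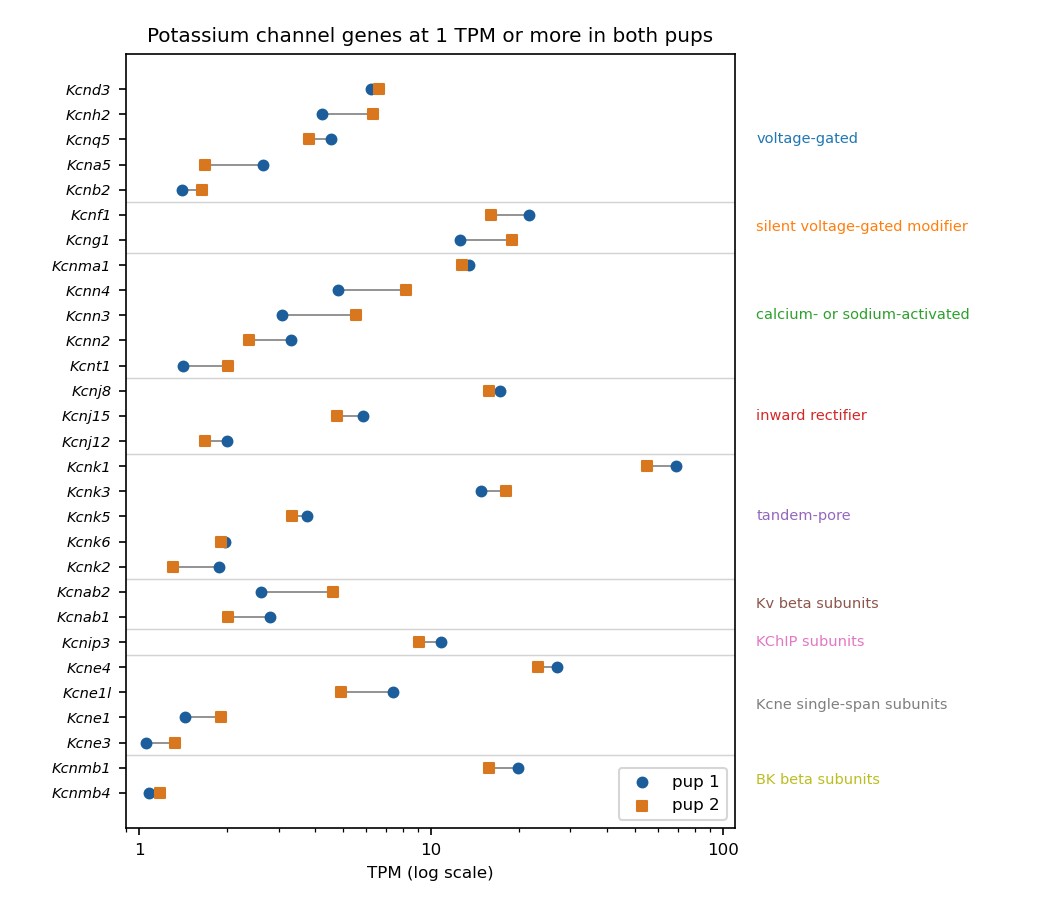
TPM in pup 1 (circles) and pup 2 (squares) of detected potassium channel genes, on a logarithmic axis, grouped by class and ordered by mean within a class. Kcnk1 is highest in both pups, and the widest gaps between pups are those of Kcnab2, Kcnn3 and Kcnn4, all lower in pup 1.

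Among the accessory subunits, 1 gene led in both pups in the Kcne, BK beta and Kv4-binding families, but not among the Kv beta subunits. Kcne4, a single-span subunit that inhibits several voltage-gated pores (ENSMUSG00000047330, chr1:78816758-78820028), was at 26.9 TPM in pup 1 and 23.3 TPM in pup 2, and was the second highest of all 94 genes. Kcne1l, also known as Kcne5, had 7.38 TPM in pup 1 and 4.92 TPM in pup 2, Kcne1 had 1.43 and 1.90 TPM, and Kcne3 had 1.05 and 1.32 TPM on 31 counts in each pup. Kcne2 was at 0.07 and 0.05 TPM on 3 and 2 counts. The pore usually named as the partner of Kcne1, Kcnq1, stayed below 1 TPM, at 0.52 and 0.72 TPM. Kcne4 exceeded the Kv7 pore Kcnq5 in both pups.

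Kcnmb1, the BK beta subunit that raises calcium sensitivity in smooth muscle (ENSMUSG00000020155, chr11:33963013-33973641), was at 19.8 TPM in pup 1 and 15.8 TPM in pup 2. It exceeded its pore Kcnma1 by 1.47-fold in pup 1 and 1.24-fold in pup 2, as ratios of TPM. Kcnmb4, the beta subunit best known from neurons, was at 1.08 and 1.18 TPM, and Kcnmb2 and Kcnmb3 had 2 counts or fewer in each pup. The beta family was thus almost all Kcnmb1, which held 93.8% of its level. Kcnmb4 shares 20.8% of its exon bases with the antisense gene Kcnmb4os2, at 1.26 and 0.74 TPM, and with protein-coding transcripts alone it had 0.65 and 0.90 TPM.

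Kcnip3, a calcium-binding subunit of Kv4 pores that is also described as a transcriptional repressor, was at 10.8 TPM in pup 1 and 9.10 TPM in pup 2. Kcnip4 reached 1.21 TPM in pup 1 and 0.98 TPM in pup 2, Kcnip1 had 0.32 and 0.64 TPM, and Kcnip2, the main cardiac form, had 0.17 and 0.09 TPM. The Kv4 pore Kcnd3 lay below Kcnip3, by 1.73-fold in pup 1 and 1.37-fold in pup 2. Kv beta subunits, cytoplasmic proteins that bind Kv1 pores, were lower. Kcnab2 had 2.61 TPM in pup 1 and 4.60 TPM in pup 2, and Kcnab1 had 2.80 and 2.01 TPM, so the pups ranked them in opposite order. Kcnab3 had 0.71 and 0.59 TPM. Kcnrg, a soluble regulator with a tetramerisation domain, had 0.31 and 0.11 TPM on 7 and 2 counts.

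Partner genes outside the Kcn symbols were read from a fixed list of 33, of which 16 were detected. Abcc9, the sulphonylurea receptor that joins Kcnj8, was at 5.52 TPM in pup 1 and 5.41 TPM in pup 2, and Abcc8, the receptor that joins Kcnj11, was at 0.01 and 0.06 TPM on 2 and 7 counts. Kcnj8 was above Abcc9 by 3.12-fold in pup 1 and 2.91-fold in pup 2. Each pore lies beside its receptor gene, with 16247 bases between Kcnj8 and Abcc9 on chromosome 6 and 3758 bases between Kcnj11 and Abcc8 on chromosome 7, so the first pair of neighbours was transcribed and the second was at or near 0. None of the 4 BK gamma subunits reached 1 TPM, the highest being Lrrc26 at 0.86 and 0.84 TPM and Lrrc55 at 0.49 and 0.70 TPM, while Lrrc38 and Lrrc52 had 3 counts or fewer. The Kv4 partners Dpp6 and Dpp10 were at 0.18 and 0.23 TPM and at 0.06 and 0.05 TPM.

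Genes of potassium transport other than plasma membrane channels were among the highest of that list. The sodium-potassium pump, which builds the potassium gradient, had 6 of 7 subunits detected, among them Atp1b3 at 109 TPM in both pups and Atp1b1 at 46.4 and 38.6 TPM. Tmem38a and Tmem38b, which encode the trimeric cation channels of the sarcoplasmic reticulum, were at 56.1 and 60.3 TPM and at 35.4 and 25.8 TPM. Slc12a4, a potassium-chloride cotransporter, was at 31.0 and 28.7 TPM. By mean level Kcnk1 alone of the 94 genes lay in the range of these genes. The 3 proton-potassium pump genes stayed below 1 TPM.

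**Figure D3:**
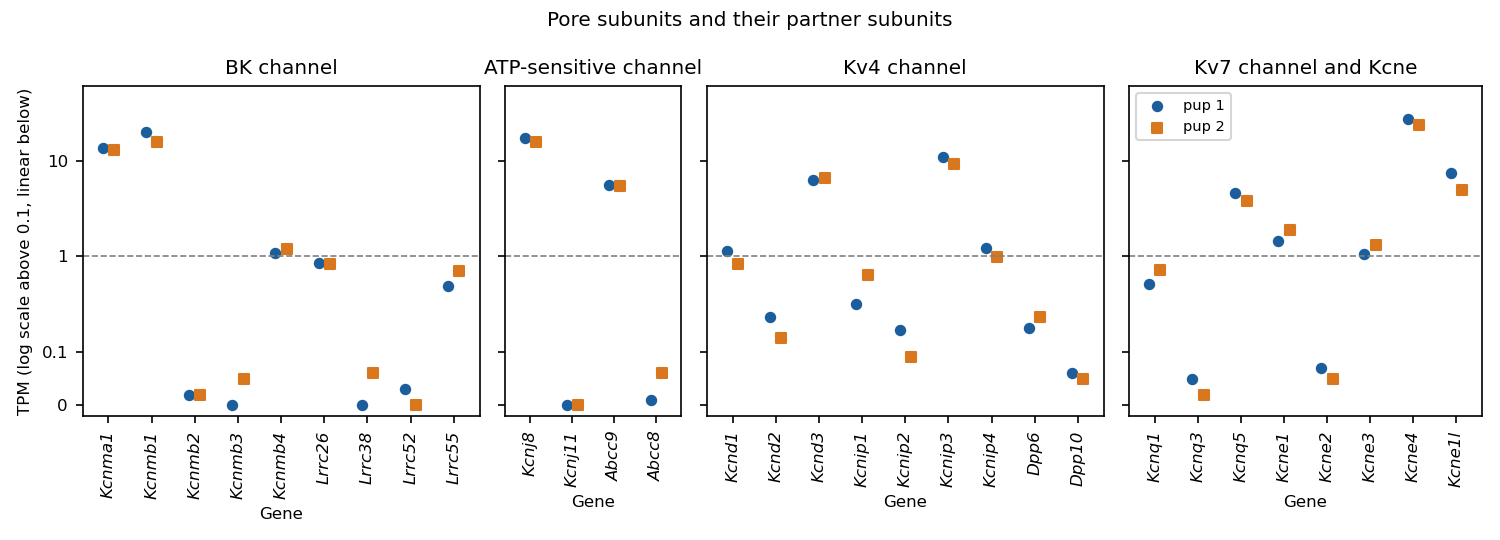
TPM in pup 1 (circles) and pup 2 (squares) of pore subunits and the partners known to join them, in 4 channel families, on an axis logarithmic above 0.1 TPM and linear below, with the dashed line at 1 TPM. In each family a few genes carry the level: Kcnma1 with Kcnmb1, Kcnj8 with Abcc9, Kcnd3 with Kcnip3, and Kcnq5 with Kcne4 and Kcne1l.

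Transcript estimates were read for the 13 detected genes with a mean of at least 500 counts. The leading transcript was protein-coding in all 13, and it was the same in both pups for 12, of which 5 have a single annotated transcript. Kcnma1 has 15 annotated transcripts, and 1 of them, Kcnma1-214, held 74.4% of the level of the gene in pup 1 and 68.7% in pup 2, by the deposited percentages. Kcne4-201 held 71.3% and 76.4%, Kcng1-202 held 79.2% and 74.4%, and Kcnip3-203 held 69.4% and 67.2%. Kcnd3 and Kcnq5 were more mixed, with Kcnd3-202 at 68.2% in pup 1 and 57.9% in pup 2 and Kcnq5-201 at 45.5% and 47.7%. Kcnj15 was the exception, with Kcnj15-206 leading in pup 1 at 25.1% and at 0.00% in pup 2, where Kcnj15-204 led at 41.3%. The gene has 13 annotated transcripts, and its mean count of 609 reads was shared among them.

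**Figure D4:**
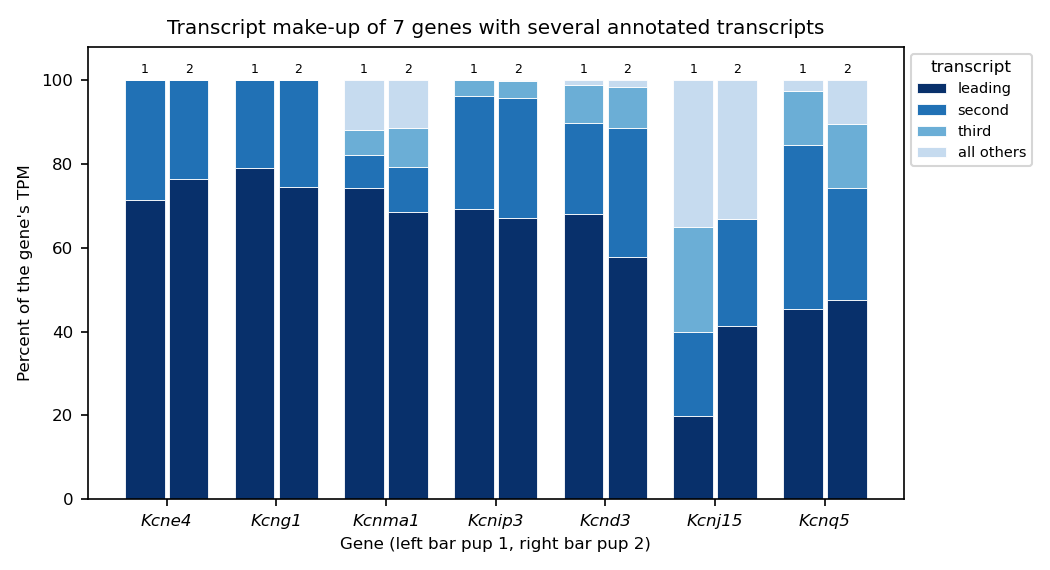
Percent of the TPM of each gene held by its 3 leading annotated transcripts, ranked by the mean of both pups, and by all others (palest), for 7 genes with at least 500 mean counts and more than 1 annotated transcript. Left bars are pup 1 and right bars are pup 2. Kcnj15 is the gene whose make-up differs most between the pups.

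No potassium channel gene with at least 100 mean counts was 2-fold apart between the littermates. How much more widely differences between the pups spread over these genes than over protein-coding genes at that count depended on the measure of spread. Differences were taken as log2 ratios of pup 1 over pup 2 on expected counts scaled by TMM, a normalisation for library composition. With 1 library per pup there is no test of a difference between pups, and the 95% intervals cover counting error only. Over the 47 members with at least 20 mean counts the median log2 ratio was 0.06, against 0.02 over 13975 protein-coding genes. Higher in pup 1 were 26 of the 47 (55.3%), near the 53.9% of those genes. Of the 30 members with at least 100 mean counts, 0 were at least 2-fold apart, against 1.94% of 12161 protein-coding genes. With 30 members, a count of 0 is near that share. The counting interval excluded equal levels for 19 of the 30 (63.3%), against 52.5% of those genes. The spread of log2 ratios was 0.35 over these members and 0.20 over those genes, each from the median absolute deviation, without matching for depth. As an SD it was 0.41 over these members and 0.37 over those genes, which is a smaller gap.

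At 1.5-fold, 4 of the 30 members (13.3%) differed, against 4.73% of the protein-coding genes, and all 4 were lower in pup 1. They were Kcnab2, Kcnn3, Kcnn4 and Kcng1. Kcnab2 had 251 counts in pup 1 and 366 in pup 2, for a log2 ratio of -0.95 (95% interval -1.19 to -0.71), and Kcnn3 had 287 and 408 counts, for -0.91 (-1.14 to -0.69). For Kcnn4, with 277 and 381 counts, the log2 ratio was -0.86 (-1.09 to -0.64). Kcng1, at -0.59, lay just past the threshold with a 1.51-fold difference. Kcna5 fell just short of it in the other direction, higher in pup 1 at a log2 ratio of 0.58. Kcnh2 was lower in pup 1 at -0.53, and Kcne1l was higher there at 0.50. Lower in pup 1 by 1.5-fold was the direction of 3.19% of the 12161 genes and higher that of 1.54%.

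Of the 47 members with at least 20 mean counts, 1 (2.13%) was at least 2-fold apart, against 3.49% of protein-coding genes. This was Kcnk13, which had 43 counts in pup 1 and 91 in pup 2, for a log2 ratio of -1.49 (-2.04 to -0.95). Kcna3, a Kv1 pore known from T lymphocytes and macrophages, had 5 and 28 counts. Beside these genes, the 4 macrophage markers Csf1r, Ptprc, Tyrobp and C1qb summed to 189 TPM in pup 1 and 437 TPM in pup 2, and all 4 were lower in pup 1. The part of such cells in the differences of Kcna3, Kcnk13, Kcnn4, Kcnn3 and Kcnab2 was not tested. Markers of other cell types were also lower in pup 1, and their part was not tested either. All 5 neuronal markers were, with sums of 10.6 TPM in pup 1 and 12.8 TPM in pup 2, and so were both interstitial markers, with sums of 36.1 and 39.6 TPM and log2 ratios of -0.40 for Kit and -0.15 for Ano1. Of the 4 endothelial markers, with sums of 101.2 and 118.1 TPM, Cldn5 had a log2 ratio of -0.45 and Egfl7 of -0.49, whereas the log2 ratios of Pecam1 and Cdh5 rounded to at most 0.03 from 0. The fibroblast marker Pdgfra was at -0.27, while the other 3 fibroblast markers were higher in pup 1. Kcnk1 and Kcnmb1 were higher in pup 1, with log2 ratios of 0.24 (0.17 to 0.31) and 0.25 (0.15 to 0.34). Kcnj8 and Kcnma1 moved little, with log2 ratios of 0.05 (-0.09 to 0.18) and 0.04 (-0.08 to 0.15). The smooth muscle markers summed to 53030 TPM in pup 1 and 48164 TPM in pup 2.

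**Figure D5:**
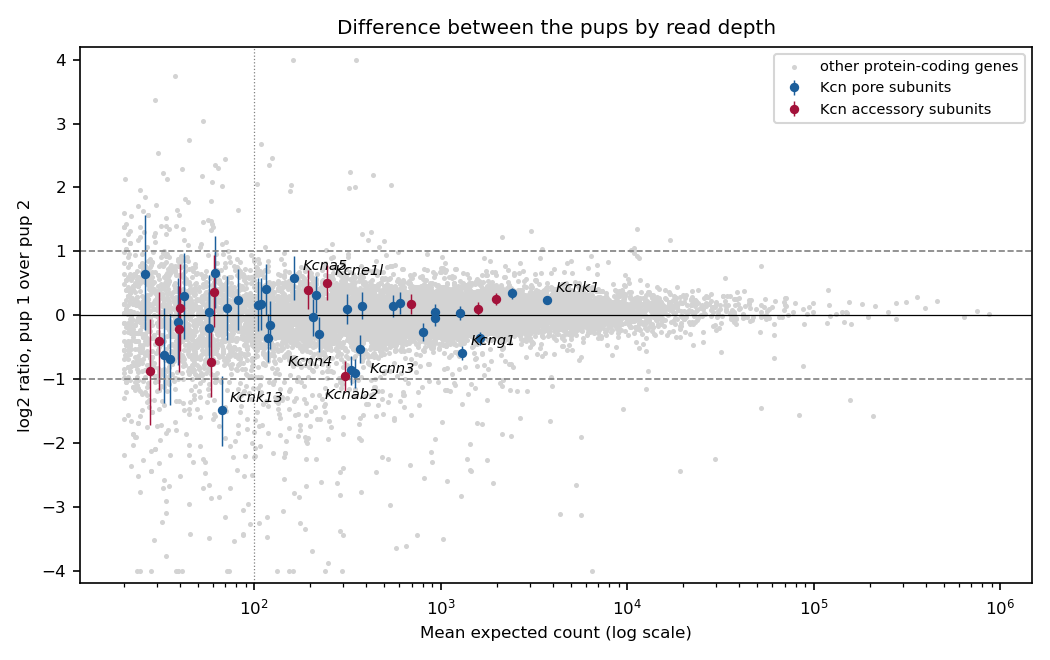
log2 ratio of pup 1 over pup 2 (TMM-scaled expected counts) against mean expected count on a logarithmic axis, for potassium channel pore and accessory genes with 95% counting intervals and for other protein-coding genes (grey), all with at least 20 mean counts. Dashed lines mark 2-fold, the dotted line marks 100 counts, and grey points beyond 4 are drawn at 4. No potassium channel gene to the right of the dotted line passes 2-fold, and Kcnk13 does to its left.

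Genes near or below detection were numerous. Just above the threshold, by the lower of both pups, were Kcnk2 at 1.30 TPM, Kcnmb4 at 1.08 TPM and Kcne3 at 1.05 TPM, and just below it were Kcnip4 at 0.98 TPM, Kcnd1 at 0.84 TPM and Kcng2 at 0.74 TPM. Over 3 counts in both pups were found for 61 of the 94 genes. A mean under 0.1 TPM was found for 38 genes, and 10 genes had 0 counts in both pups, which is 10.6% against 19.2% of all protein-coding genes. The 3 counts that a count of 0 allows come to a median of 0.0343 TPM over the members in pup 1 and 0.0429 TPM in pup 2. For 83 of the 94 genes the authors' estimator gave a posterior SD of 0 reads in both pups, and among the 31 detected genes the largest SD was 6.49% of the count.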

How the data were processed

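Total RNA-seq libraries of 2 pup bladders were analysed. For each library the authors deposited estimates per gene and per transcript, laid out as the RSEM estimator writes them, on mm10 with GENCODE M4 annotation per the file listings supplied with the samples. The sources used here name no aligner, software version or strand setting, so overlapping and antisense genes cannot be separated by strand. Deposited expected counts are estimated reads, not normalised. Deposited TPM values are scaled over all entries of a file, and deposited FPKM values and percent of the gene per transcript were used as given.

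Of 43346 mouse genes, 42462 were matched by identifier to GENCODE M21 (the same assembly), and the rest held 0.124% of counts. Counts were rounded and scaled with TMM (edgeR 4.0.16, R 4.3.3). Ratios of TPM exceed the scaled count ratios by a median of 0.08 (log2, pup 1 over pup 2). Intervals are exact Clopper-Pearson at 95%, in Python 3.11.15 with scipy 1.17.1, and cover counting error only, since PCR copies are not told apart. On counts simulated over 12733 genes for this comparison, 96 of 100 genes at 2.5-fold, 100 of 100 at 4-fold and 0 of 12533 unchanged genes were called 2-fold apart, in a simulation with less spread than the pups had. Members, classes and lists were chosen with earlier results of these data known. Values are given for every member with a mean of 5 TPM or more, the highest of each class, members at the threshold and those 2-fold apart, except some items that are not reported here. Genes named beyond that rule, among them the 1.5-fold differences, Kcna3 and Kcnk13, were chosen after their values were seen.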

Additional observations from a re-analysis of the deposited data

How the results depend on the processing

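The number of potassium channel genes at 1 TPM or more in both pups was 31, and it was 40 at 0.5 TPM, 22 at 2 TPM, 34 with posterior mean TPM, 25 with FPKM, 33 with TPM rescaled without mitochondrial and globin genes and 28 with protein-coding transcripts alone, which took Kcnt1, Kcnk2 and Kcnmb4 below 1 TPM. Single pups gave 32 to 33. The summed level of 285 TPM became 354 TPM after that rescaling, which raised levels by a median of 24.1%, and was 277 to 294 TPM in single pups. Posterior mean TPM shifted levels by a median of 2.08% and at most 42.2%, for Kcnab2 at 5.13 TPM in place of 3.61 TPM. The count of members 2-fold apart, 0 at 100 mean counts, was 1 at 20 mean counts, 21 with no filter and 4 at 1.5-fold. The median log2 ratio of 0.06 ranged from -0.01 with no filter to 0.12 with 0.1 added to TPM. With 1 added to TPM, Kcnn3 had a log2 ratio of -0.67 and Kcnab2 of -0.63. No paired analysis was possible because the design has a single group. Depth limits genes at or under 3 counts in both pups, which were 23 of the 94.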

Other observations

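Several potassium channel genes lie next to each other. Within 200 kb of another member were 18 genes in 12 pairs, some of which share a gene. In 0 of these pairs were both genes at 1 TPM or more in both pups, while in 5 pairs 1 gene was. That level was reached by 33.0% of all members and 58.5% of all protein-coding genes. Neighbouring pairs of other genes were not counted, so the pair counts are a description and show nothing particular to neighbours. Kcnmb1 lies inside the Kcnip1 gene on the opposite strand, and Kcnmb1 was at 19.8 and 15.8 TPM in pup 1 and pup 2 while Kcnip1 was at 0.32 and 0.64 TPM. In the Kv1 cluster on chromosome 6, Kcna5 had 2.66 and 1.68 TPM, Kcna6 had 0.84 and 0.68 TPM and Kcna1 had 0.16 TPM in both. Kcnk5 had 3.74 and 3.33 TPM beside Kcnk16 at 0.04 and 0.00 TPM, and Kcne1 had 1.43 and 1.90 TPM beside Kcne2 at 0.07 and 0.05 TPM. In the cluster of Kcna3, Kcna2 and Kcna10 on chromosome 3, in the pair Kcnj9 and Kcnj10, in the pair Kcnj16 and Kcnj2 and in the pair Kcnj5 and Kcnj1 no gene was above 0.63 TPM, the value of Kcna3 in pup 2.

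The number of CpG dinucleotides in promoters was similar in detected and other members. RefSeq promoter windows (GRCm38.p6) were found for 69 members and averaged over the starts of a gene. The median number of CpG dinucleotides was 10.5 in 22 members at 1 TPM or more in both pups and 12.5 in 47 other members. Over all protein-coding genes with a window it was 20 at a mean of 1 TPM or more and 3 below. Median GC content was 57.3% and 61.3% in those member sets, against 60.7% and 49.0% in the protein-coding sets. This is a description of the windows, and no test was made.

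The antisense gene Kcnq1ot1, which overlaps Kcnq1 and is no member, had 1678 counts in pup 1 and 1227 in pup 2, against 30.3 and 35.4 counts for Kcnq1. Per length the levels were close, at 0.66 and 0.61 TPM for Kcnq1ot1 and 0.52 and 0.72 TPM for Kcnq1. With the strand setting unknown, reads of such partners cannot be told apart where they overlap.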
